A study of Mus musculus with 2 samples.

Results

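The miR-34 family of the mouse comprises 3 microRNA genes, Mir34a, Mir34b and Mir34c, which were taken by name from the 2202 microRNA genes counted. They were measured by small-RNA sequencing of the adrenal gland, the organ that joins a steroid-producing cortex to a catecholamine-producing medulla, in 2 female mice aged 10 days. Both animals were of strain B6CASTF1/J, the first-generation cross of C57BL/6J and CAST/EiJ, and carried no further genotype or treatment in the labels. They form 1 group and are called replicate 1 and replicate 2, numbered 3 and 4 as animals. Both also carry the same donor entry, so that they are separate animals rests on those numbers.

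MicroRNAs are short RNAs cut from the arms of a hairpin, and the seed, bases 2 to 8 from the 5′ end, chiefly decides which messenger RNAs they repress. Mir34a is a direct target of the transcription factor p53 and represses genes that drive the cell cycle and survival, such as those for cyclins, Cdk4, Cdk6, Met and Bcl2. Mir34b and Mir34c are cut from 1 transcript and, with the related Mir449 genes, are known from ciliated epithelium, where they are needed for motile cilia, and from male germ cells. Naming p53 for Mir34a does not mean that Mir34b and Mir34c lack a link to it, which was not examined here.

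The mature sequences below, from RefSeq (GRCm38.p6), are shown because their seed defines the family. Capitals mark bases 2 to 8.
miR-34a-5p: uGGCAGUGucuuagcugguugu
miR-34b-5p: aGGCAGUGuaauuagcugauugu
miR-449a-5p: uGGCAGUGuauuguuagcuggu
miR-449c-5p: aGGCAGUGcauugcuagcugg
These 4, from Mir34a, Mir34b, Mir449a and Mir449c, are the entries with that seed among the 1738 mature entries of the table (0.230%). The table used here has no entry for miR-34c-5p or Mir449b, so the list says nothing of those 2.

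The hairpins of the clustered genes Mir34b and Mir34c are shown because Mir34c differed between the libraries and its neighbour Mir34b did not pass the test. Capitals mark the same 7 bases, GGCAGUG.
Mir34b hairpin: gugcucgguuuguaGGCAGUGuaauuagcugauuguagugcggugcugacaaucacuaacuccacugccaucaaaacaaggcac
Mir34c hairpin: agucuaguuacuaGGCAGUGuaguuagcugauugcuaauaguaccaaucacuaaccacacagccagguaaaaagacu
The 7 bases lay once in each of the 3 hairpins, at positions 21 to 27 of Mir34a, 15 to 21 of Mir34b and 14 to 20 of Mir34c, counted from the 5′ end. Read on the hairpin's own strand, they were found in 17 of the 1005 hairpins of the table (1.69%). The match is a description of letters.

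The other arm separates Mir34a from the cluster. Capitals again mark bases 2 to 8.
miR-34b-3p: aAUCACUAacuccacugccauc
miR-34c-3p: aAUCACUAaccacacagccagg
miR-34a-3p: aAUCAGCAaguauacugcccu
The seed of miR-34b-3p and miR-34c-3p was held by these 2 entries alone, and that of miR-34a-3p by 1. The counts are per hairpin and do not say which arm the reads came from.

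How well Mir34b and Mir34c can be told apart by their reads is not known, since their 5′ arms differ little. Their hairpins had 58 identical aligned bases, 75.3% of the shorter one, and the longest identical run was 11 bases. On the 5′ side of both hairpins, that run and another shared run of 11 bases were parted by 1 differing base. The arm miR-34c-5p had no entry, so it was not among the mature arms compared. Mir34a matched Mir34b at 60 bases (71.4%) and Mir34c at 56 (72.7%). Each of the 5 mature arms of the family in the table occurred whole in 1 hairpin. None shared a run of more than 11 bases with the hairpin of another miR-34 gene or of Mir449a or Mir449c. Reads that aligned to several places in the genome were not counted, and how many of those came from this family is not known. How many mismatches were allowed is not known either.

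Mir34a (ENSMUSG00000065493.1) lies on the plus strand of chromosome 4, positions 150068454 to 150068555 of mm10. In GENCODE M21 its last 17 bases overlap an exon of the unclassified gene Gm37795 on the same strand, and the nearest coding gene, Gpr157, starts 18809 bases away. Mir34c (ENSMUSG00000065587.1) and Mir34b (ENSMUSG00000065492.1) lie 451 bases apart on the minus strand of chromosome 9, at positions 51103034 to 51103110 and 51103562 to 51103645. Both sit in an intron of Btg4, a gene known from oocytes and testis, which is annotated on the opposite strand. The coding gene 4833427G06Rik, on their own strand, is 955 bases from Mir34c.

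Replicate 1 held 2023410 counts assigned to microRNA genes and replicate 2 held 3208821, so that 1 count was worth 0.494 and 0.312 CPM, counts scaled to the total assigned to microRNA genes. Of the 2202 genes, 302 reached 10 CPM in both libraries. As a check of the tissue, Mir375, a microRNA of neuroendocrine cells such as those of the medulla, was at 24805 and 31924 CPM. Mir122 of liver (26733 and 9284 CPM) and Mir206 of striated muscle (11177 and 4480 CPM) were also high, so the check is limited. Whether other tissue was present in the samples was not tested. No list used here marks the cortex. The labels give a size range near that of a mature arm, so levels were not divided by the hairpins' lengths of 102, 84 and 77 bases.

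Mir34a and Mir34c had similar mean levels and exchanged places between the libraries, while Mir34b was the lowest of the family in both. Mir34a was counted 1797 times in replicate 1 and 2006 times in replicate 2. That is 888 CPM (exact Clopper-Pearson 95% interval 848 to 930) and 625 CPM (598 to 653), a mean of 757 ± 186 (SD, n = 2). It was lower in replicate 2 by a factor of 1.42, and the intervals did not overlap.

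Mir34c was counted 505 and 4416 times, which is 250 CPM (228 to 272) and 1376 CPM (1336 to 1417). Its mean was 813 CPM ± 797 (SD, n = 2). It was 5.51-fold higher in replicate 2, and the SD was nearly as large as the mean. The intervals of Mir34c were far apart.

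Mir34b was counted 49 and 75 times, at 24.2 CPM (17.9 to 32.0) and 23.4 CPM (18.4 to 29.3), with a mean of 23.8 ± 0.596 (SD, n = 2). These intervals overlapped almost fully. By mean CPM the genes ranked 103 (Mir34c), 106 (Mir34a) and 281 (Mir34b) among all genes. The first 2 of these did not differ beyond the spread between the animals, whereas Mir34b was below both in each library. Within the libraries Mir34a ranked 98 and 109, Mir34c 156 and 74, and Mir34b 280 and 278.

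**Figure D1:**
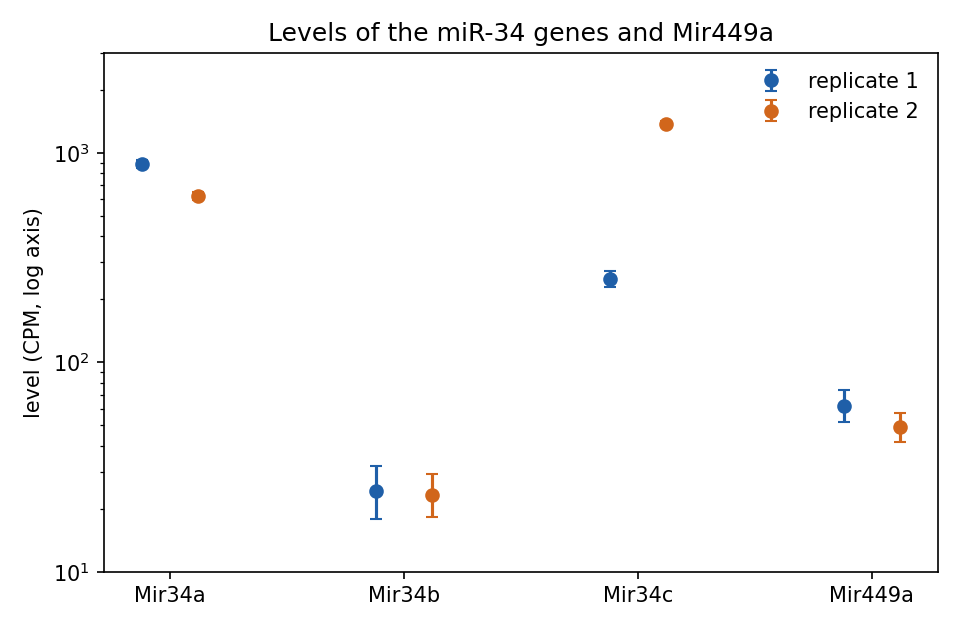
Level of each miR-34 gene and of Mir449a in CPM (log axis) in replicate 1 (blue) and replicate 2 (orange), with exact 95% intervals for counting error as bars. Mir34c moved from 250 to 1376 CPM and crossed Mir34a, which stood at 888 and 625 CPM, while Mir34b stayed at 24.2 and 23.4 CPM.

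The comparison of Mir34a with the Mir34b and Mir34c cluster had opposite answers in the 2 libraries. The counts do not measure p53 activity. In replicate 1, Mir34a was counted 3.24 times as often as both cluster genes together (exact 95% interval 2.95 to 3.57). In replicate 2 the cluster was counted 2.24 times as often as Mir34a (2.12 to 2.36). Mir34a thus made up 76.4% of family counts in replicate 1 (74.7 to 78.1%) and 30.9% in replicate 2 (29.8 to 32.0%). The mean share was 53.7% ± 32.2 (SD, n = 2).

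The shift was larger than counting error. The odds of a family count being Mir34a were 7.26 times lower in replicate 2 (exact 95% interval 6.50 to 8.11), with a log10 p of -325 by the two-sided Fisher's exact test. This ratio was taken within each library, so library scaling does not enter it. The test sets reads of 2 libraries against each other. It compares neither conditions nor groups of animals, and with 1 library per animal, animals and library preparations cannot be told apart.

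**Figure D2:**
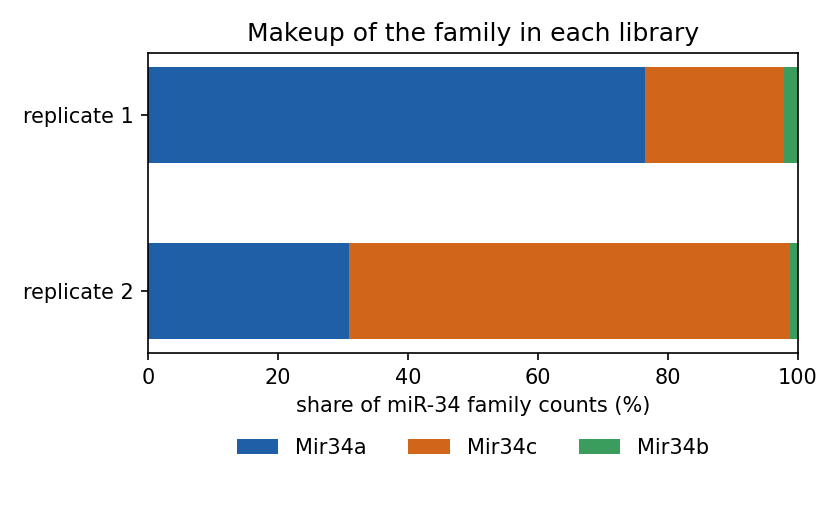
Share of miR-34 family counts in percent taken by Mir34a (blue), Mir34c (orange) and Mir34b (green) in each library, with no error shown. Mir34a fell from 76.4% to 30.9% of the family and Mir34c took 21.5% and 68.0%.

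Within the cluster, Mir34c held most of the counts in both libraries, though how well reads of the pair were told apart is not known. Mir34c took 91.2% of the counts of the pair in replicate 1 (88.5 to 93.4%) and 98.3% in replicate 2 (97.9 to 98.7%). Its mean share was 94.7% ± 5.07 (SD, n = 2). Put as a ratio, Mir34c was counted 10.3 times as often as Mir34b in replicate 1 (7.68 to 14.1) and 58.9 times in replicate 2 (46.9 to 75.0). The odds were 5.71 times higher in replicate 2 (3.85 to 8.40) by the two-sided Fisher's exact test (p = 5.3e-17, the same after Benjamini-Hochberg adjustment over these 2 tests of shares).

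Mir34a and Mir34b kept a more similar ratio. Mir34a was counted 36.7 times as often as Mir34b in replicate 1 (27.6 to 49.8) and 26.7 times in replicate 2 (21.2 to 34.1). These intervals overlapped, and this ratio was not tested. The family as a whole took 1162 and 2025 CPM, or 0.116% and 0.202% of assigned counts, and Mir34c was the only one of the 3 with a higher CPM in replicate 2.

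Mir34c and Mir34a kept these directions when all genes with at least 10 CPM in either library were tested gene by gene. With 1 CPM added to each TMM-scaled level, the log2 ratio of replicate 2 over replicate 1 was 2.51 for Mir34c (exact 95% interval 2.38 to 2.65), with a log10 p of -461 before adjustment by the exact conditional binomial test. For Mir34a it was -0.46 (-0.55 to -0.37, adjusted p = 6.3e-22 by the same exact test with Benjamini-Hochberg adjustment). For Mir34b it was -0.003 (-0.54 to 0.55, adjusted p = 1.0 by that exact test), so that a difference of up to about the size of Mir34a's was not detectable at its depth.

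Of the 3 miR-34 genes, 2 passed, beside 244 of the 329 tested genes (74.2%), so a call by itself sets no gene of the family apart. The 1 higher and 1 lower gene compare with 37.7% higher and 36.5% lower over all genes tested. The sizes differ more. The log2 ratio of Mir34c was the tenth highest, and 14 of the 329 genes (4.26%) had a larger ratio in either direction. Among the 213 tested genes whose mean reached 100 CPM, it ranked 6 from the highest. Mir34a was typical, with 52.6% of tested genes differing more. The point estimate of Mir34b was among the smallest, with 99.4% differing more, but its interval of -0.54 to 0.55 does not show it to be steady. The median absolute log2 ratio was 0.49 over all genes tested.

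**Figure D3:**
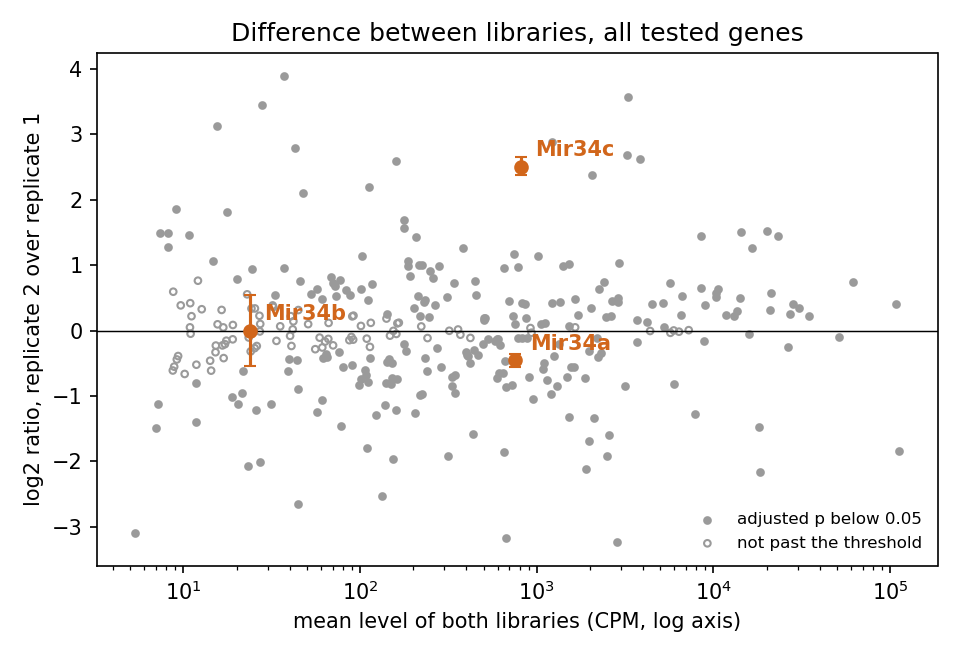
Log2 ratio of replicate 2 over replicate 1 against mean level in CPM (log axis) for the 329 tested genes, filled where the adjusted p was below 0.05, with the miR-34 genes in orange and their exact 95% intervals as bars. Mir34c lies at 2.51, near the upper edge of genes of its level, Mir34a at -0.46 and Mir34b on the zero line.

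Mir34b and Mir34c parted further than most neighbours do. Tested genes that follow each other on a strand within 10 kb formed 94 pairs, over which the median gap between the log2 ratios of the 2 genes was 0.74. The gap of the miR-34 pair was 2.51. A larger one was found in 6 pairs (6.38%), of which 4 held genes of the Dlk1-Dio3 region (Mir381 with Mir487b, Mir544 with Mir382, Mir487b with Mir539 and Mir299a with Mir380). The others were Mir181a-2 with Mir181b-2, and Mir497 with Mir195a. Mir544 (10.4 and 0.312 CPM) and Mir181a-2 (44.5 and 9.97 CPM) entered the test through replicate 1 alone. Some other pairs among the 94 also held a gene under 10 CPM in 1 library. Pairs can share a gene, so they are not independent, and these genes were named after their values were seen.

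Their gap in level was less unusual. On the log2(CPM + 1) scale it was 3.31 in replicate 1, where 32 of the 94 pairs had a wider one, and 5.82 in replicate 2, where 9 had.

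**Figure D4:**
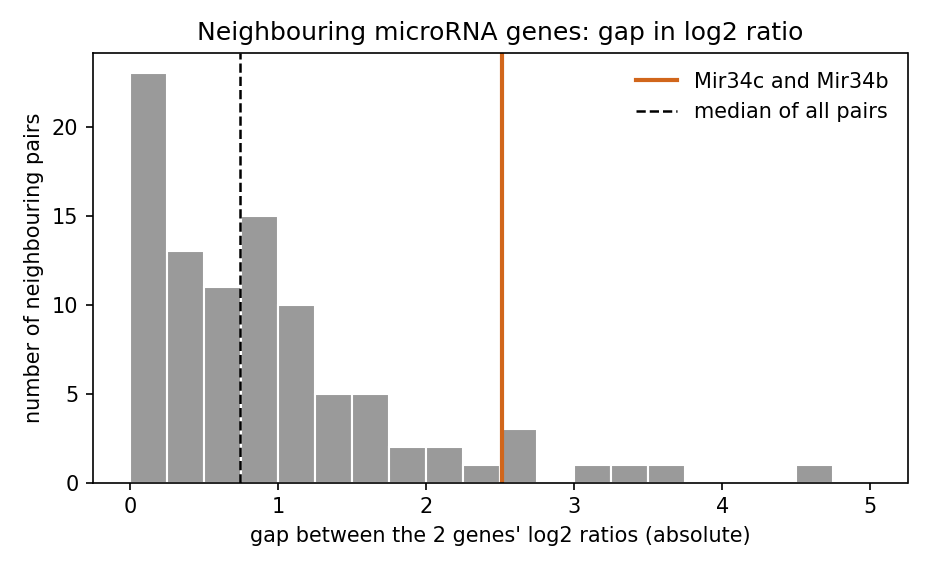
Number of neighbouring gene pairs (of 94) by the absolute gap between the log2 ratios of the 2 genes. The orange line marks Mir34c with Mir34b at 2.51 and the dashed line the median of 0.74.

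The Mir449 genes share the family's 5′ seed and its role in ciliated cells, and they did not follow Mir34c. Mir449a was counted 126 and 158 times, at 62.3 CPM (exact 95% interval 51.9 to 74.1) and then 49.2 CPM (41.9 to 57.5). Its log2 ratio was -0.29 (-0.64 to 0.06, adjusted p = 0.13 by the exact conditional binomial test). Mir449c had 0 counts in replicate 1 and 2 in replicate 2, and Mir449b had none, which allows up to 1.48 and 0.935 CPM.

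The 3 genes lie on the plus strand of chromosome 13 in introns of Cdc20b, near the multiciliation gene Mcidas. They took 5.09% of the counts of all 6 miR-34 and miR-449 genes in replicate 1 (4.25 to 6.03%) and 2.40% in replicate 2 (2.05 to 2.80%). Mir449a was the third most abundant gene of that pool in both libraries and Mir34b the fourth.

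Genes of male germ cells, the other known site of Mir34b and Mir34c, were near zero in these females. The 16 genes of that list, all on the X chromosome, summed to 13.3 and 16.2 CPM, and 10 had no count in either library. Mir547 alone was tested and was higher in replicate 2 (3.95 and 12.5 CPM), having passed the floor there only. The gonadal Mir202 moved against Mir34c, from 81.5 to 32.7 CPM (log2 ratio -1.24).

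Other microRNAs linked to p53 split in direction. Of 11 genes in that list 9 were tested, of which 5 were higher and 4 lower in replicate 2, beside 37.7% and 36.5% of all genes tested. Their median log2 ratio was 0.34, against -0.01 over all tested genes. Mir143 (27532 and 33734 CPM) and Mir145a (897 and 5579 CPM), known from smooth muscle, were higher, as was Mir107 (1959 and 3883 CPM). Mir15a (3996 and 1025 CPM), which represses cell-cycle and Bcl2 messages, was lower. The list follows neither Mir34a, whose log2 ratio was -0.46, nor Mir34c, at 2.51, as 1 block.

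The epithelial microRNAs of the list used here were higher in the same library as Mir34c, and so were some microRNAs of other cells. All 7 genes of that list were higher in replicate 2, beside 37.7% of all genes tested, with log2 ratios from 0.84 to 3.45 and a median of 1.43. Mir203 of squamous epithelium was at 300.0 and 2141 CPM, Mir200b at 114 and 299, Mir200c at 140 and 243, and Mir205 at 128 and 246. The sum over the list was 742 CPM in replicate 1, against 3274 CPM in replicate 2, and no gene of it was at 0. Of the 7, Mir200a and Mir141 were under 10 CPM in replicate 1, so that they entered the test through replicate 2, and Mir141 and Mir200c are also in the p53 list. Mir145a of smooth muscle, given above, had a log2 ratio of 2.68. Chosen after their values were seen, Mir142 and Mir223 of leukocytes had log2 ratios of 1.16 and 1.57 (471 and 1023 CPM, and 91.4 and 265 CPM), and Mir140 of cartilage had 3.57 (527 and 6072 CPM). Not all genes of such cells went this way. Outside the epithelial list, Mir192 and Mir194-2 of the p53 list had -1.80 and -1.29. Among leukocyte genes Mir146 had -0.39, while Mir150 and Mir155 had 0.42 and 0.23. Among mesenchymal genes Mir214 had -1.69 and Mir199a-2 -0.61, while Mir199b had 0.72. The part of epithelial or any other cells in the higher Mir34c was not tested. In a bulk sample, more cells of a type and more RNA per cell cannot be told apart.

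The lists for endothelium, liver and striated muscle moved the opposite way. Mir126a of endothelium was lower in replicate 2 (177728 and 47927 CPM), as were Mir122 of liver (26733 and 9284 CPM) and all 4 tested of 9 striated muscle genes (list sum 11315 and 4508 CPM), beside 36.5% of all genes tested. Those 4 were Mir206, Mir499, Mir208b and Mir133b, of which Mir208b and Mir133b entered the test through replicate 1 alone, and 2 of the list had no count. Their part in the lower Mir34a was not tested.

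Of the 5 neuroendocrine genes, Mir375 was higher, Mir7b (2333 and 2081 CPM) and Mir137 (869 and 774 CPM) were among 3 that were lower, and Mir7-1 did not pass. The list summed to 28211 and 34978 CPM. Of 10 neuronal genes, 4 were tested. Mir128-1 was higher, Mir138-1, Mir138-2 and Mir128-2 did not pass, and Mir124a-2, Mir124a-3, Mir9-2 and Mir9-3 had no count. Reads shared by such numbered copies were not counted, so their levels are uncertain, as are those of the other numbered genes named here.

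**Figure D5:**
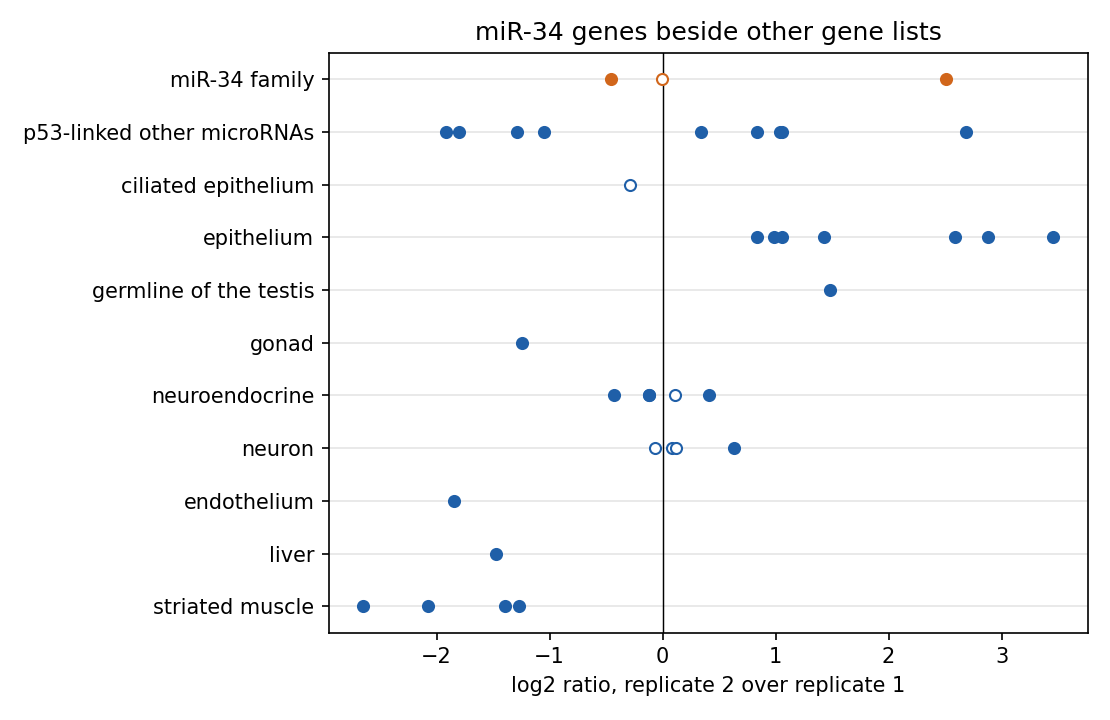
Log2 ratio of replicate 2 over replicate 1 for the tested genes of each list, with the miR-34 genes in orange and filled points past an adjusted p of 0.05. The 7 epithelial genes lie between 0.84 and 3.45 on the side of Mir34c at 2.51, while Mir449a of ciliated epithelium lies at -0.29 and the p53-linked genes fall on both sides.

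Few genes had the levels of Mir34c in both libraries. By distance over log2(CPM + 1) in the 2 libraries, which describes likeness of level alone, its nearest genes were Mir203 (distance 0.69), Mir142 of leukocytes (1.01, at 471 and 1023 CPM) and Mir221 (1.11, at 454 and 849 CPM). No gene lay within 0.5. For Mir34a the nearest were Mir872 (0.26, at 833 and 741 CPM), Mir18 (0.28, at 779 and 544 CPM) and Mir673 (0.31, at 934 and 509 CPM), and 13 genes lay within 0.5. For Mir34b they were Mir1949 (0.08, at 24.7 and 22.1 CPM), Mir675 (0.22, at 28.2 and 22.4 CPM) and Mir365-2 (0.22, at 27.2 and 20.9 CPM), also with 13 genes within 0.5.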

How the data were processed

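The authors deposited raw read counts per microRNA gene for each library, with mm10 and GENCODE M21 as build and annotation, per the text files beside them. No aligner or counting program is named in the sources used here. By their values, the 3 count columns are reads on either strand, on the gene's strand (used here) and on the opposite strand. Summary lines that name no gene stayed out of totals and tests. In replicates 1 and 2 they held unmapped reads (28.1% and 26.4% of all reads), reads with several alignments (25.0% and 27.2%) and reads outside microRNA genes (8.55% and 8.86%).

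All 2202 identifiers matched the annotation. CPM was taken over all assigned counts. Genes with at least 10 CPM in either library were compared by a two-sided exact conditional binomial test with TMM sizes (edgeR 4.0.16, factors from all genes) and Benjamini-Hochberg adjustment at 0.05, since 1 library per animal leaves no replicate spread for a count model. The test was tried on simulated data with counting error alone and plain library totals. That simulation therefore says nothing of spread between animals or library preparations. Intervals are exact at 95% and, like the limit of 3 counts for a count of 0, cover counting error only. Members and lists were chosen with earlier results of these data known. Named by rule are the 3 members, genes with the same 5′ seed or in the Mir449 list, the 3 genes nearest to each member and up to 4 per list with the highest mean CPM. Beyond the rule, the pairs with a larger gap and some further genes were named after their values were seen. Some list genes were also named for having no count or for being under the floor in 1 library. Alternatives were DESeq2 1.42.0 size factors, library totals, other floors, pseudocount, denominator and strand. Calculations ran in R 4.3.3, Python 3.11.15, SciPy 1.17.1 and Biopython 1.88.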

Additional observations from a re-analysis of the deposited data

How the results depend on the processing

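Mir34c stayed higher and Mir34a lower in replicate 2 in all 7 alternative fits across genes, with log2 ratios from 2.43 to 2.54 and from -0.53 to -0.43, and 2 of the 3 genes passed each time. The TMM factors from genes at 10 CPM or more were added after the data were seen. Mir34b never passed, and its ratio near zero turned to 0.028 with DESeq2 size factors and 0.013 irrespective of strand. It had no value at the floor of 100 CPM. The mean levels of Mir34a and Mir34b moved beyond 1 SD with the denominator, while that of Mir34c, whose SD is wider, did not (306 scaled to all reads and 1049 CPM irrespective of strand). Scaled to all reads, Mir34a stood at 287 and Mir34b at 9.02, and irrespective of strand, where fewer reads were assigned, at 1036 and 32.6 CPM. Without 1 replicate, the level ranged from 625 to 888 CPM for Mir34a, from 23.4 to 24.2 for Mir34b and from 250 to 1376 for Mir34c. Mir34a's share of the family then ranged from 30.9 to 76.4%, and Mir34c's share of the pair from 91.2 to 98.3%, so the order of Mir34a and Mir34c rests on which library is read. Neuroendocrine genes called lower numbered 3, but 1 with DESeq2 size factors and 2 with a floor of 1 count or of 100 CPM. At that higher floor, where fewer genes are tested, 1 striated muscle gene was called lower and 5 epithelial genes higher. No comparison between libraries is left when 1 is taken out.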
